A study of Mus musculus with 75 samples.

Results

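Chemokine ligands are small secreted or membrane-anchored proteins that direct the movement of leukocytes. Their genes were taken as all rows annotated protein_coding whose symbol begins with Ccl, Cxcl, Cx3cl or Xcl followed by a digit. This gave 44 of 55536 genes in the count table (22028 of them protein-coding), with 39 different symbols. No expression value was used to choose them. The platelet chemokines Pf4 and Ppbp have other names and fell outside the rule, as did Cxcl11, which is annotated as a polymorphic pseudogene, and 2 Ccl19 pseudogenes.

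The genes were measured by RNA sequencing of 75 liver libraries from mice labelled as male C57Bl/6, prepared with a stranded total RNA kit. Exposed mice had dams whose drinking water held tributyltin (TBT), an organotin compound, at 3.07 µM, a daily dose of 0.5 mg/kg, up to weaning. Control dams drank vehicle. At 3 weeks there were 8 vehicle libraries, 2 of them from the same mouse and summed to leave 7 samples, and 8 TBT libraries. At 5 months there were 8 vehicle libraries, 16 from TBT mice labelled low-risk and 10 from TBT mice labelled high-risk. The 10-month groups were vehicle (6 libraries), low-risk TBT (5), uninvolved liver of high-risk TBT mice (6) and tumors of TBT mice (7). Tumor and uninvolved samples share mouse numbers in 6 cases. How risk was judged at 5 months is not given in the labels. The uninvolved livers numbered 3 and 6 had nearly the same counts and were summed, which left 5 samples. A single 10-month library, labelled as a tumor of a vehicle mouse, was kept out of all comparisons.

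Chemokines bind G-protein-coupled receptors on leukocytes, and the pattern of receptors decides which cells respond. Inducible chemokines are made by activated macrophages, endothelium, bile duct cells and hepatocytes under NF-kB or interferon signalling. Homeostatic chemokines such as Cxcl12 are made continuously by stromal and endothelial cells. In the liver they are known for drawing monocytes, T cells, NK cells and neutrophils into injured or tumor-bearing tissue.

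The deposited depth ran from 2.83 to 45.45 M counts (M, mega) per library. All 6 hepatocyte markers checked (Alb, Apoa1, Ttr, Tat, Serpina1c and Cps1) were detected in every group, with median sums of 84220 CPM or more in the replicated groups of 5 and 10 months. Xist stood at 348 CPM in the library labelled TBT 4 of 3 weeks and at 84.6 CPM in low-risk liver 24 of 5 months, against their labels as male. Uninvolved libraries stood apart from the other 10-month groups without overlap: mitochondrial genes took 4.20 to 5.85% of their counts, against 2.94 to 3.08% in low-risk livers and 2.64 to 3.46% in tumors. They had 24676 to 28715 genes detected and 34.76 to 44.59 M counts, against 21663 to 22578 genes and 26.43 to 33.49 M in low-risk livers, and 22.5 to 27.89 M in tumors. Among them, livers 3, 6 and 12 had 93.95 to 102.2 CPM summed over 4 Y-linked genes and livers 1, 5 and 7 had 194.3 to 205.6 CPM. Levels below are CPM, read counts scaled to a common library size, after scaling the libraries by TMM, a method that sets aside genes with extreme counts. This scaling matters here: with library totals alone, the median gene was 0.30 higher on the log2 scale in high-risk than low-risk livers of 5 months and 0.30 higher in uninvolved than low-risk livers, and with TMM these medians were -0.01 and 0.05. Whether a group has more cells of a type or more RNA per cell cannot be told apart in whole-tissue RNA.

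Of the 44 genes, 22 passed the filter on low counts in at least 1 comparison, and only those are counted in the tests that follow. The other 22 were never tested, and none of them averaged over 0.23 CPM. They include Ccl7, Ccl8, Ccl11, Ccl12, Ccl17, Ccl19 and Ccl20. Of the 44 genes 7 lie on unplaced scaffolds, and 4 had no count at all. Reads of the Ccl19, Ccl21 and Ccl27 copies may be shared between near-identical loci, so single members of those families are uncertain. Counted per kilobase of annotated exon and averaged over the 75 libraries without TMM scaling, Cxcl12 stood highest at 28.75 CPM per kb. Ccl9 followed at 19.7, Ccl6 at 6.05, Cxcl9 at 4.55, Cxcl1 at 4.15 and Cxcl16 at 3.74 CPM per kb. By this measure 2 genes, a stromal ligand and a myeloid ligand, dominated the family in liver. Without division by exon length, Cxcl12 alone made up a median of 78.7% of the summed CPM of the family in 10-month vehicles, 66.8% in uninvolved livers and 47.8% in tumors. These shares also reflect its length, 8176 bases of annotated exon against 3045 for Ccl9.

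Promoter sequence from RefSeq (build GRCm38.p6) was available for 26 of the 44 genes, as the 250 bases before each annotated start. An NF-kB consensus was found in 6 of the 26 (23.1%), against 4.46% of 27025 genes. The interferon-stimulated response element (GAAA, any 2 bases, GAAA) was found in 3 (11.5%, against 3.46%). The NF-kB matches were in Cxcl1, Cxcl2, Cxcl3, Cxcl10, Ccl9 and Ccl20, of which Cxcl3 and Ccl20 had too few counts to test. Among the members called higher at 5 months below, only Cxcl10 and Ccl9 had an NF-kB match. Cx3cl1, Ccl22, Cxcl9 and Xcl1 had none, and no sequence was available for Ccl2, Ccl5 and Cxcl16. Both strands were searched, and a match is a description of letters, not a site of binding. Shown here are both interferon-inducible CXCR3 ligands, which lie side by side on chromosome 5 and were each called higher below. With them are 2 ligands with an NF-kB match and unlike behaviour. Every match is in capitals. The Cxcl10 window, chr5:92348890-92349139 on the minus strand, holds an interferon-stimulated response element followed by 2 NF-kB matches. The Cxcl1 window, chr5:90890995-90891244 on the plus strand, holds a pair of NF-kB matches, on opposite strands and overlapping. The Ccl9 window, chr11:83578637-83578886 on the minus strand, holds a single NF-kB match. The Cxcl9 window, chr5:92328080-92328329 on the minus strand, held neither pattern.
Cxcl10: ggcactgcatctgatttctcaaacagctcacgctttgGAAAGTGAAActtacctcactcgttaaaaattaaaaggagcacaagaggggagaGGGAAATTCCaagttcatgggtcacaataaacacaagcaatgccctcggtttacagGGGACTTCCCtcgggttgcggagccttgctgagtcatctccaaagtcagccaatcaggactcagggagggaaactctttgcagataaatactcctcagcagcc
Cxcl1: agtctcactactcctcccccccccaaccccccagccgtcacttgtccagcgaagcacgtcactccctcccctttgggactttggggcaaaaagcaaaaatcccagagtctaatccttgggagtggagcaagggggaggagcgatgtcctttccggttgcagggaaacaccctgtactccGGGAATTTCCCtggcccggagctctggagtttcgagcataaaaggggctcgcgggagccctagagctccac
Ccl9: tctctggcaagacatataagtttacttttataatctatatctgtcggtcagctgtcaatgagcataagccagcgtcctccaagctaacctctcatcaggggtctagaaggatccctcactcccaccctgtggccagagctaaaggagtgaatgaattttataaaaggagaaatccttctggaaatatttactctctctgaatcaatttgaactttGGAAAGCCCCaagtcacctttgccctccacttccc
Cxcl9: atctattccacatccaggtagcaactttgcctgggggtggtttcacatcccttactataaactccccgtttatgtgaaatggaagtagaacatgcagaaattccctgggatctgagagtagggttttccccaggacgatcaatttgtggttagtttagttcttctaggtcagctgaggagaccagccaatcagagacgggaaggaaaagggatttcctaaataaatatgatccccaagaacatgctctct

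Cx3cl1, Ccl22, Ccl5, Ccl2, Cxcl10, Cxcl16, Cxcl9 and Ccl9 were higher in high-risk than low-risk liver at both ages, and Cxcl13 and Ccl24 were lower. At 5 months, 12 of 17 tested members differed between 10 high-risk and 16 low-risk livers: 9 were higher (Ccl22, Cx3cl1, Xcl1, Ccl5, Ccl2, Cxcl10, Cxcl16, Cxcl9 and Ccl9) and 3 were lower (Cxcl13, Ccl24 and Ccl27a). The test was edgeR's quasi-likelihood test with batch as a covariate and Benjamini-Hochberg adjustment at 0.05. Among all 14773 genes tested, 38.9% passed, 20.3% higher and 18.5% lower. The median log2 fold change was 0.52 over the 17 members and -0.01 over all genes. At 10 months, 13 of 18 tested members differed between uninvolved high-risk livers and low-risk livers, 11 higher and 2 lower. Here the background was 52.4% of 16338 genes, 27.7% higher and 24.7% lower, and the medians were 0.95 and 0.05. The part of the differences in mitochondrial share, genes detected and depth given above was not tested. Scaling by library totals at 5 months gave 9 higher and 1 lower, with Ccl24 and Ccl27a no longer past the threshold. The sequencing batches at 5 months held 3 high-risk and 6 low-risk libraries (batch 1) and 7 and 10 (batch 2). They gave 2 and 6 called members, against 4.69% and 32.3% of all genes. Of the 12 members named, Cxcl9 passed in batch 1, and Cxcl16, Cx3cl1, Cxcl10, Ccl5, Ccl2 and Ccl27a passed in batch 2. Without the 3 libraries of these groups that stood apart in depth (under 5 M counts), genes detected (over 35000) or mitochondrial share (over 10%) (high-risk 10 and 15, low-risk 16), 7 members were called. Xcl1 and Ccl22 then failed the count filter, and Cxcl9, Ccl9 and Cxcl13 missed the threshold. Without low-risk liver 24, all 12 passed.

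**Figure D1:**
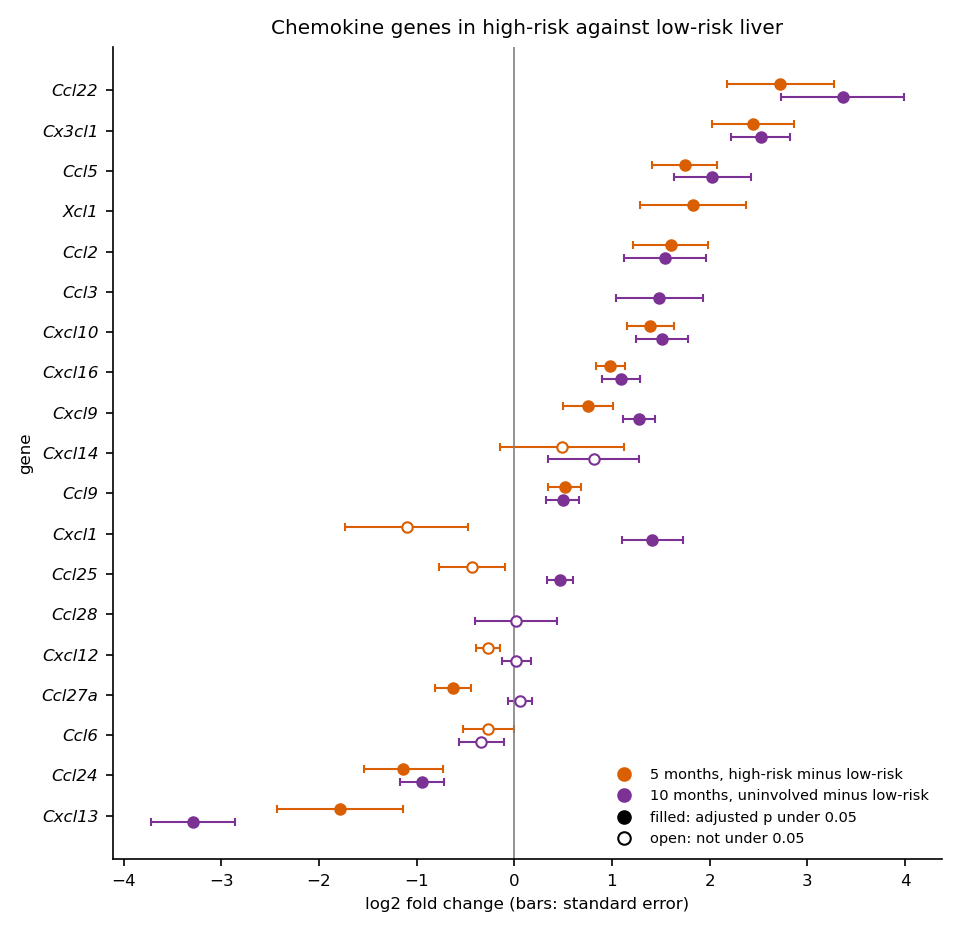
Log2 fold changes of the tested chemokine genes (bars, standard error) between high-risk and low-risk livers at 5 months (orange) and between uninvolved high-risk and low-risk livers at 10 months (purple), with filled points where the edgeR adjusted p was under 0.05. Ccl22 and Cx3cl1 lie farthest to the right at both ages, and Cxcl13 farthest to the left.

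The CXCR3 ligands Cxcl10 and Cxcl9, which attract activated T and NK cells, were higher in high-risk liver at both ages. At 5 months Cxcl10 had 2.97, 5.44 and 8.75 CPM (lowest, median and highest) in high-risk livers, 0.811, 1.82 and 4.93 in low-risk livers and 1.45, 2.03 and 3.53 in vehicles. All high-risk livers except 1, 4 and 22 lay above every low-risk liver. The log2 fold change against low-risk livers was 1.39 (SE 0.24, edgeR adjusted p = 2.29e-05), and within batches 1 and 2 it was 1.11 and 1.53. At 10 months the 5 uninvolved samples had 3.02, 4.37, 5.19, 5.37 and 7.51 CPM and the low-risk livers 1.35, 1.41, 1.52, 1.59 and 2.93 CPM of Cxcl10. These groups did not overlap, although low-risk liver 10 came close to the lowest uninvolved sample. The difference was 1.51 (SE 0.27, adjusted p = 0.000216). Exons of Cxcl10 (chr5:92346638-92348889, minus strand) share 133 bases with Art3 on the other strand, and since the strand setting of the counting is not stated, reads of the pair cannot be told apart there.

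Cxcl9, the neighbour of Cxcl10 (chr5:92321347-92328079, minus strand), behaved less evenly at 5 months. High-risk livers had 8.84, 17.1 and 37.8 CPM (lowest, median, highest) and low-risk livers 2.88, 11.1 and 23.7, a wide overlap. The log2 fold change was 0.76 (SE 0.26, edgeR adjusted p = 0.0185), with 1.21 in batch 1 and 0.52 in batch 2, where it did not pass (adjusted p = 0.312). At 10 months the separation was clean. Uninvolved samples had 12.2, 18.2, 21.4, 21.6 and 21.9 CPM of Cxcl9 and low-risk livers 5.66, 7.65, 7.97, 8.08 and 9.68 CPM. The log2 fold change was 1.27 (SE 0.16, adjusted p = 1.03e-05). Whether the difference was larger at 10 months was tested as an interaction and did not pass (0.52, SE 0.45, adjusted p = 0.682).

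Both chemokines that are made as transmembrane proteins rose in high-risk liver. Cxcl16 is the ligand of CXCR6 on T and NKT cells and also binds oxidised lipoprotein. At 5 months it had 8.02, 16.3 and 23.4 CPM (lowest, median, highest) in high-risk livers, 6.42, 8.4 and 11.5 in low-risk livers and 4.10, 8.29 and 18.1 in vehicles. High-risk livers 1 and 22 lay in the low-risk range, and the other 8 lay above it. Cxcl16 differed by 0.98 on the log2 scale (SE 0.15, edgeR adjusted p = 3.98e-06), the smallest adjusted p among the members at this age, with 1.06 and 0.95 within the batches. Uninvolved samples of 10 months had 9.66, 15.8, 17.8, 22 and 22.6 CPM of Cxcl16 against 7.03, 7.69, 8, 8.68 and 9.52 in low-risk livers. The groups stood just apart, and the difference was 1.09 (SE 0.19, adjusted p = 0.000197). Exons of Cxcl16 (chr11:70453983-70459984) share 552 bases with Zmynd15 on the other strand.

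Cx3cl1, or fractalkine, is the ligand of CX3CR1 on monocytes and macrophages. Its level at 5 months was 1.22, 9.30 and 12.7 CPM (lowest, median, highest) in high-risk livers and 0.534, 1.08 and 8.90 CPM in low-risk livers. Within each group some livers departed from the rest: high-risk 1 and 22 had 1.22 and 2.49 CPM, and low-risk 2 had 8.90 CPM where the next had 2.03. Vehicles of 5 months had 0.450 to 5.14 CPM of Cx3cl1, with vehicles 4, 6 and 9 at 3.42 CPM or more and the rest under 1. Vehicle 9 had only 2.83 M counts. Between risk groups the log2 fold change of Cx3cl1 was 2.44 (SE 0.42, edgeR adjusted p = 2.34e-05), and 2.19 and 2.56 within the batches. At 10 months uninvolved samples had 3.12, 3.95, 6.28, 8.15 and 10.1 CPM and low-risk livers 0.824, 0.972, 1.05, 1.11 and 1.51 CPM. No value overlapped, and the log2 fold change was 2.52 (SE 0.30, adjusted p = 5.59e-06), the smallest adjusted p among the members at this age.

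**Figure D2:**
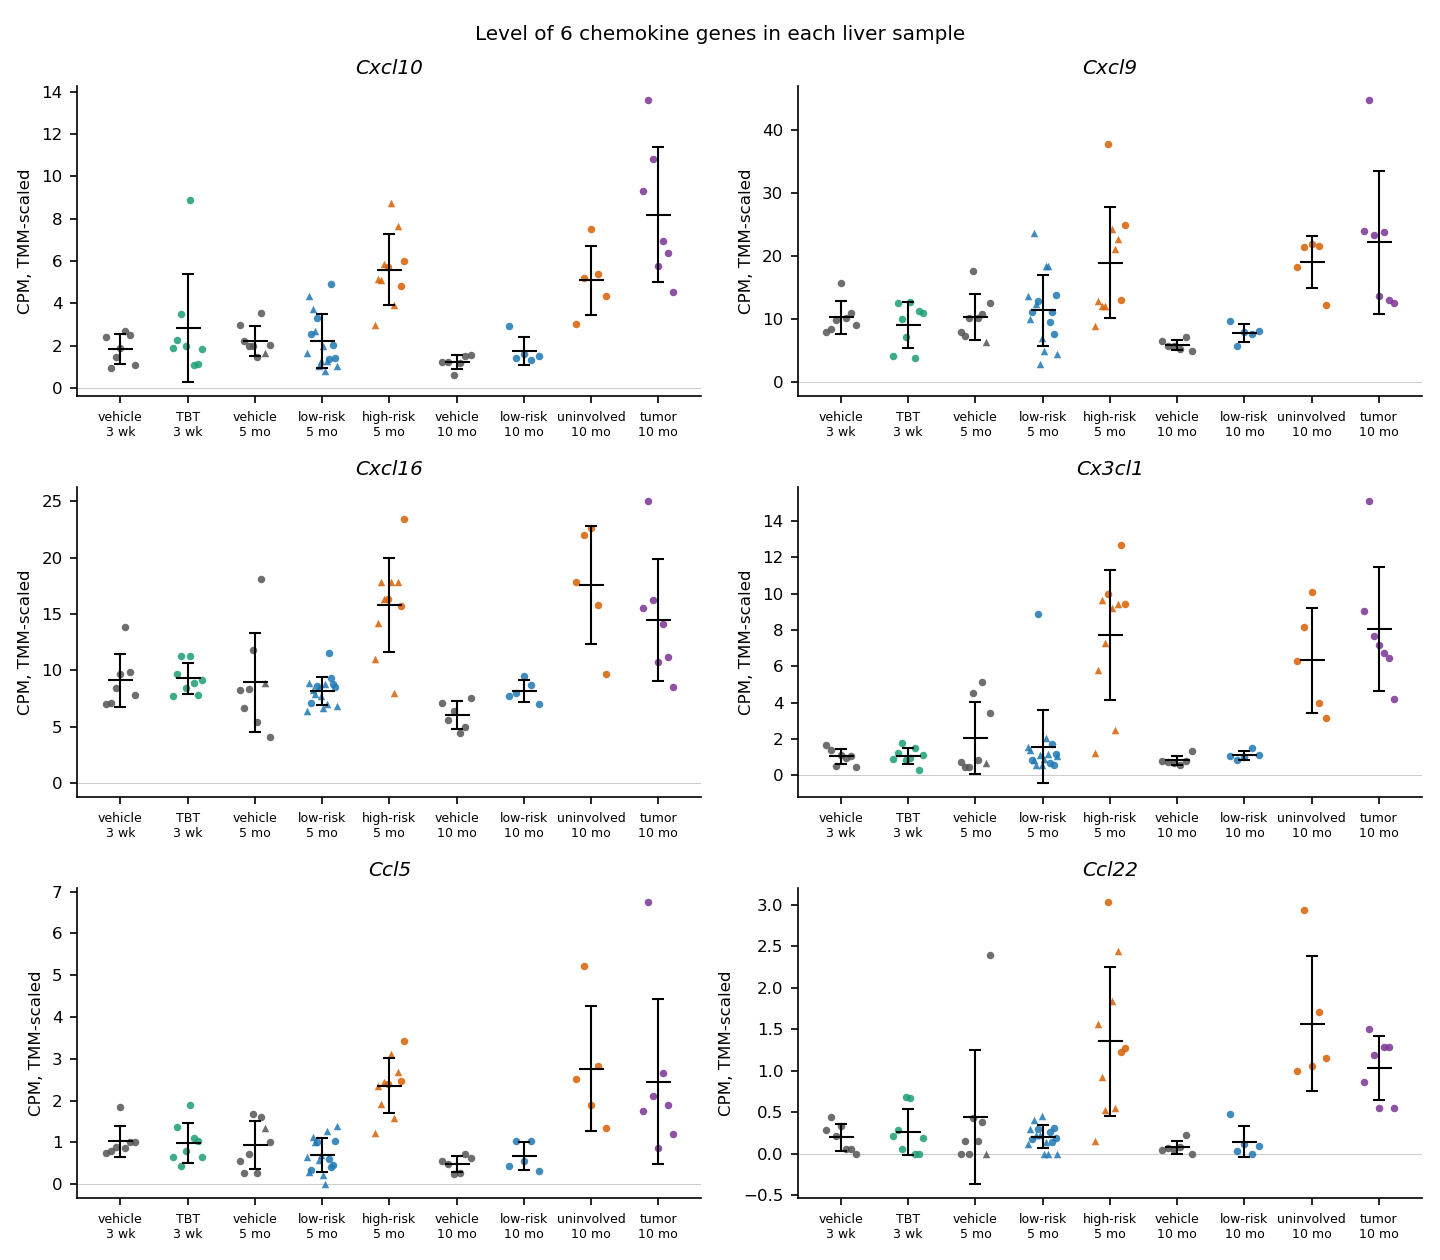
TMM-scaled CPM of Cxcl10, Cxcl9, Cxcl16, Cx3cl1, Ccl5 and Ccl22 in each sample by group, with the mean (bar) and SD (whiskers), circles for sequencing batch 1 and triangles for batch 2. High-risk, uninvolved and tumor samples lie mostly above the other groups, and 2 high-risk livers of batch 2 lie low for Cx3cl1, at 1.22 and 2.49 CPM.

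Ccl22, a CCR4 ligand made mainly by dendritic cells and macrophages, showed the largest log2 fold change among the called members in both risk comparisons, from low counts. At 5 months high-risk livers had 0.152, 1.25 and 3.03 CPM (lowest, median, highest) and low-risk livers 0, 0.207 and 0.458 CPM. High-risk liver 1 lay in the low-risk range and the other 9 lay above it. Ccl22 differed by 2.72 on the log2 scale (SE 0.55, edgeR adjusted p = 0.000167). In batch 1 it was 2.98 but did not pass (adjusted p = 0.120), and in batch 2 alone the gene failed the count filter. At 10 months uninvolved samples had 0.994, 1.05, 1.15, 1.71 and 2.93 CPM and low-risk livers 0, 0.0343, 0.0929, 0.117 and 0.472 CPM. The groups did not overlap, and the log2 fold change of Ccl22 was 3.36 (SE 0.63, adjusted p = 0.000336). The other CCR4 ligand, Ccl17, had too few counts to test, with a median of 0.153 CPM in uninvolved samples and 0.0619 CPM in low-risk livers of 10 months.

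Ccl22 (chr8:94745590-94751699), Cx3cl1 (chr8:94772009-94782427) and Ccl17 (chr8:94810453-94812036) are consecutive genes on the plus strand of chromosome 8. Other genes within 100 kb of them were read beside them. At 5 months Ccdc102a and Arl2bp were also higher in high-risk livers, by 1.09 (SE 0.28, edgeR adjusted p = 0.00238) and 0.69 (SE 0.18, adjusted p = 0.00234). Rspry1, Pllp, Ciapin1, Coq9, Polr2c and Dok4 had values between -0.29 and 0.23 there and did not pass. At 10 months Ccdc102a was higher by 1.18 (adjusted p = 0.00627) and Dok4 by 0.51 (adjusted p = 0.0424), while Pllp, Rspry1 and Coq9 were lower, at -0.76 (adjusted p = 0.00214), -0.42 (adjusted p = 0.00069) and -0.25 (adjusted p = 0.0335). The neighbours thus had called changes in both directions, with fold changes smaller than those of Ccl22 and Cx3cl1.

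Ccl2, the main CCR2 ligand and a monocyte attractant, rose in high-risk liver at both ages. High-risk livers of 5 months had 0.0762, 1.88 and 2.52 CPM (lowest, median, highest) and low-risk livers 0.111, 0.450 and 1.78 CPM. High-risk liver 1 was the lowest of all 26 at 0.0762 CPM, while low-risk liver 14 reached 1.78 CPM, so the groups overlapped. On the log2 scale the difference was 1.60 (SE 0.38, edgeR adjusted p = 0.00105), with 1.78 and 1.51 within the batches. Uninvolved samples of 10 months had 0.997, 1.58, 1.68, 1.69 and 2.76 CPM of Ccl2 against 0.206, 0.398, 0.505, 0.526 and 1.32 CPM in low-risk livers. Low-risk liver 10 overlapped the uninvolved group, and the difference was 1.54 (SE 0.42, adjusted p = 0.00547). The other CCR2 ligands, Ccl7 and Ccl12, were too low to test.

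Ccl5, which attracts T cells, monocytes and macrophages, was also higher in high-risk liver at both ages. High-risk livers of 5 months had 1.22, 2.42 and 3.43 CPM of Ccl5 (lowest, median, highest), low-risk livers 0, 0.628 and 1.39 CPM, and vehicles 0.257, 0.878 and 1.68 CPM. A single high-risk liver, number 1, lay within the low-risk range. Ccl5 differed by 1.75 on the log2 scale (SE 0.33, edgeR adjusted p = 8.40e-05), with 2.07 and 1.58 within the batches. At 10 months uninvolved samples had 1.35, 1.89, 2.52, 2.84 and 5.22 CPM of Ccl5 and low-risk livers 0.310, 0.438, 0.544, 1.03 and 1.04 CPM. The groups did not overlap, and the difference was 2.03 (SE 0.40, adjusted p = 0.000496).

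Ccl9, a CCR1 ligand found in rodents and the second most abundant member, changed by a smaller factor. At 5 months it had 48.5, 63.6 and 94.8 CPM (lowest, median, highest) in high-risk livers and 29.4, 38.8 and 112 CPM in low-risk livers. The highest value of all 26 was in low-risk liver 24, and the log2 fold change of Ccl9 was 0.52 (SE 0.17, edgeR adjusted p = 0.0155). At 10 months the 5 uninvolved samples had 47.7, 48.0, 48.7, 65.4 and 84.6 CPM and the low-risk livers 29.4, 38.0, 41.9, 42.6 and 55.3 CPM. The difference was 0.50 (SE 0.17, adjusted p = 0.0204). Neither batch passed at 5 months (0.58 in batch 1 and 0.48 in batch 2). At 10 months, without the summed uninvolved sample 3 and 6 it was 0.34, and without low-risk liver 9 it was 0.39, and neither passed. Ccl6, the close relative beside Ccl9 on chromosome 11, gave -0.26 at 5 months and -0.34 at 10 months and did not pass (adjusted p = 0.448 and 0.227).

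Ccl3, a macrophage inflammatory protein, failed the count filter at 5 months and was low at 10 months. It was named after its values were seen, as were Xcl1 and Ccl4. Uninvolved samples had 0.358, 0.773, 0.816, 0.998 and 1.22 CPM and low-risk livers 0.186, 0.240, 0.279, 0.337 and 0.428 CPM. The lowest uninvolved sample, number 7, lay inside the low-risk range, and the log2 fold change of Ccl3 was 1.49 (SE 0.45, edgeR adjusted p = 0.0106). Xcl1, the ligand of XCR1 on cross-presenting dendritic cells, passed the count filter of the risk comparisons at 5 months only. The median was 0.625 CPM for high-risk and 0.187 CPM for low-risk livers, with values of 0 to 1.94 and 0 to 0.845 CPM. The groups overlapped widely, and the log2 fold change of Xcl1 was 1.83 (SE 0.54, adjusted p = 0.0072). Its exons share 98 bases with Gm20743 on the other strand.

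A B-cell attractant and an eosinophil attractant went the opposite way between risk groups, and neither was called lower than in vehicle at 5 months. Cxcl13, the ligand of CXCR5 on B cells, had 0, 0.191 and 2.67 CPM (lowest, median, highest) in 5-month high-risk livers and 0.444, 1.28 and 4.61 CPM in low-risk livers. High-risk liver 1 held the 2.67 CPM, and the next had 0.484 CPM. Cxcl13 differed by -1.78 on the log2 scale (SE 0.65, edgeR adjusted p = 0.0275), and it did not pass in batch 1 (-3.34, adjusted p = 0.110) or batch 2 (-1.27, adjusted p = 0.166). The uninvolved samples had 0.102, 0.159, 0.248, 0.272 and 0.333 CPM and low-risk livers 1.39, 1.48, 1.55, 3.16 and 3.30 CPM. No value overlapped, and the log2 fold change of Cxcl13 was -3.29 (SE 0.43, adjusted p = 1.35e-05).

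Ccl24, a CCR3 ligand that attracts eosinophils, had 0.123, 0.595 and 3.25 CPM in 5-month high-risk livers and 0.704, 1.84 and 4.07 CPM in low-risk livers (lowest, median, highest). High-risk livers 1 and 22 were the highest of their group at 2.28 and 3.25 CPM, well inside the low-risk range. Vehicles of batch 1 had 0.0535, 1.03 and 1.53 CPM of Ccl24, between the batch 1 medians of high-risk (0.71 CPM) and low-risk livers (1.45 CPM) at their median. The log2 fold change was -1.14 (SE 0.41, edgeR adjusted p = 0.0245), and scaling by library totals gave -0.89, which did not pass (adjusted p = 0.0517). Within batches 1 and 2 it was -1.12 and -1.15, and neither passed. At 10 months uninvolved samples had 0.710, 0.741, 0.976, 1.06 and 1.20 CPM of Ccl24 against 1.28, 1.54, 1.85, 2.03 and 2.26 CPM. The groups stood apart, with a log2 fold change of -0.94 (SE 0.23, adjusted p = 0.00251).

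The skin and gut homing ligands and the stromal ligand gave mixed results between risk groups. Ccl27a, a CCR10 ligand, had 1.48, 2.72 and 4.08 CPM (lowest, median, highest) in the high-risk group of 5 months and 2.77, 3.84 and 8.45 CPM in the low-risk group, a difference of -0.63 (SE 0.19, edgeR adjusted p = 0.00714). Vehicles of batch 1 had 2.57, 3.12 and 4.1 CPM of Ccl27a. With library totals the difference of Ccl27a between risk groups was -0.33 and did not pass, and within batches 1 and 2 it was -0.60 and -0.64. At 10 months the value was 0.05 (SE 0.12, adjusted p = 0.725). Ccl25, the CCR9 ligand, passed at 10 months only, by 0.47 (SE 0.13, adjusted p = 0.00611). Its 5-month value was -0.44 (SE 0.34), and low-risk liver 2 alone had 32.8 CPM where the next had 11 CPM. Cxcl12, the CXCR4 ligand, had values of -0.26 (SE 0.12, adjusted p = 0.0849) and 0.02 (SE 0.15, adjusted p = 0.913).

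Cxcl1, a CXCR2 ligand that attracts neutrophils, passed between risk groups at 10 months. Uninvolved samples had 9.05, 11.6, 12.2, 13.6 and 16.9 CPM and low-risk livers 2.29, 2.99, 3.98, 4.56 and 9.88 CPM of Cxcl1. Low-risk liver 8 reached into the uninvolved range, and the log2 fold change was 1.41 (SE 0.32, edgeR adjusted p = 0.00151). At 5 months low-risk livers were spread from 0.895 to 36.8 CPM and vehicles from 1.02 to 67.0 CPM, while high-risk livers had 2.45 to 9.58 CPM. That difference was -1.10 (SE 0.63, adjusted p = 0.169). The 10-month minus 5-month difference of Cxcl1 was 2.48 (SE 0.92), with an unadjusted p of 0.0108 and an adjusted p of 0.250. No member passed this interaction test, in which 0.448% of 16084 genes did, and Cxcl1 and Ccl27a were the 2 members with an unadjusted p under 0.05.

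Cx3cl1, Ccl22, Cxcl10, Ccl5, Cxcl9 and Cxcl16 were also higher in high-risk than in vehicle liver. At 5 months 6 of 17 tested members were higher than in 8 vehicles (Cx3cl1 2.57, Ccl22 2.59, Cxcl10 1.5, Ccl5 1.35, Cxcl9 1.04 and Cxcl16 0.95, log2) and none was lower, with a background of 15.8% (8.47% higher, 7.38% lower). Within batch 1, which held 7 of the 8 vehicles, the values were 2.29, 2.21, 1.25, 1.66, 1.20 and 1.02 in that order, and no gene of any kind passed (0%). Ccl22, Ccl5 and Cxcl9 were also lost without the filter on low counts, Cxcl9 without the libraries that stood apart, and Ccl22 in a fit of the 2 groups alone. At 10 months 14 of 18 differed between uninvolved liver and vehicle (12 higher, 2 lower, background 57.7%, with 31.2% higher and 26.5% lower), among them Ccl22 at 4.25 (SE 0.65), Cx3cl1 at 2.96 (SE 0.29) and Cxcl13 at -3.04 (SE 0.42). Cxcl14, a homeostatic ligand of disputed receptor, was among them at 1.87 (SE 0.46, adjusted p = 0.00272). With the tumor library of a vehicle mouse counted as a vehicle, 10 passed, and Ccl5, Ccl9, Cxcl10 and Ccl24 did not. Both comparisons share their high-risk samples with those against low-risk liver.

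Low-risk liver gave no called member at either age. At 5 months 0 of 17 passed by edgeR against vehicle, 0 with DESeq2, and 1 had an unadjusted p under 0.05 (Ccl27a, 0.53, SE 0.22); 0% of all genes passed. At 10 months 0 of 18 passed, 0 with DESeq2, against a background of 0%. Cxcl9 (0.40, SE 0.16), Cxcl16 (0.44, SE 0.19) and Cxcl14 (1.06, SE 0.47) had an unadjusted p under 0.05. The median log2 fold change at 10 months was 0.38 over the 18 members, 14 of them positive, and 0.005 over all genes. At 5 months the median was 0.10 over the 17 members, 9 of them positive, and 0.01 over all genes. At 3 weeks 0 of 12 tested members passed between 8 TBT and 7 vehicle samples, again with 0% of all genes and 0 with DESeq2. Ccl6 alone had an unadjusted p under 0.05, at -0.39 (SE 0.18). TBT sample 5 had 8.89 CPM of Cxcl10 where the other 7 had 1.10 to 3.51 CPM. Leaving out TBT sample 4 also gave 0.

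Few members differed between tumors and uninvolved liver. Between 7 tumors and 5 uninvolved samples 0 members were higher and 3 were lower of 21 tested. The background was 18.1% (7.55% higher, 10.5% lower). In this fit, without the mouse as a block, the share of members called in either direction did not exceed that of all genes. Some other fits called 6 members, as given below. The mitochondrial share and depth of these groups did not overlap, and their part was not tested. Ccl27a had the smallest adjusted p. Tumors had 1.95, 2.63 and 3.52 CPM (lowest, median, highest) and uninvolved samples 3.92, 4.35, 4.37, 4.51 and 4.97 CPM of Ccl27a. No value overlapped, and the log2 fold change was -0.69 (SE 0.16, edgeR adjusted p = 0.0132). With the mouse as a block the call of Ccl27a held (-0.70, adjusted p = 0.0432). Its exons share 8 bases with Il11ra1 on the other strand.

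Cxcl12 in tumors was 113, 142 and 273 CPM (lowest, median, highest), against 216, 260, 271, 287 and 309 CPM in uninvolved samples. Tumor 7 held the 273 CPM and was the only tumor in the uninvolved range. Cxcl12 differed by -0.71 on the log2 scale (SE 0.20, edgeR adjusted p = 0.0254). Leaving out uninvolved sample 1, 5 or 7 gave -0.69, -0.68 and -0.64 with adjusted p of 0.0609, 0.0626 and 0.0666. Against vehicles of 10 months, with 235 to 434 CPM, tumors were lower by -0.87 (SE 0.20, adjusted p = 0.00283). Ccl25 had 3.54, 5.04 and 6.06 CPM in tumors and 5.16, 6.17, 6.96, 8.03 and 8.36 CPM in uninvolved samples. Its log2 fold change of -0.52 (SE 0.17) passed narrowly (adjusted p = 0.0494), and it did not pass with the mouse as a block (-0.48, adjusted p = 0.150) or under 7 other settings. Exons of Ccl25 share 204 bases with Elavl1 on the other strand.

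**Figure D3:**
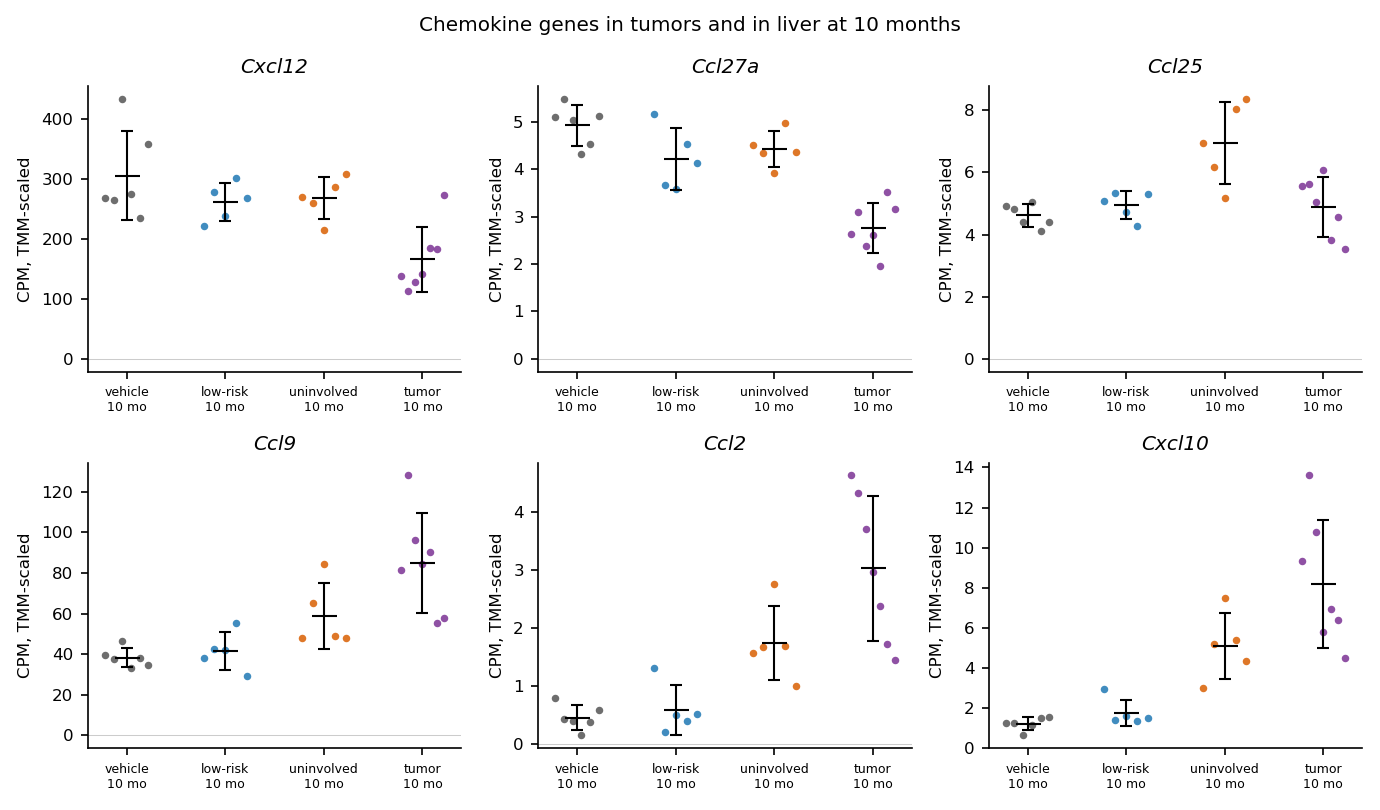
TMM-scaled CPM of Cxcl12, Ccl27a, Ccl25, Ccl9, Ccl2 and Cxcl10 in 10-month vehicle, low-risk, uninvolved and tumor samples, with mean and SD. Ccl27a lies lower in all 7 tumors than in any uninvolved sample, and Cxcl12 in all tumors but 1.

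Of the 21 members tested, 9 had a positive log2 fold change in tumors, and the median was -0.17, against -0.01 over all genes. Ccl2 had 1.45, 2.97 and 4.63 CPM in tumors (lowest, median, highest), a difference from uninvolved samples of 0.79 (SE 0.31, edgeR adjusted p = 0.0919). Cxcl10 had 4.52, 6.95 and 13.6 CPM, a difference of 0.68 (SE 0.27, adjusted p = 0.0920). Ccl9 had 55.5, 84.6 and 128 CPM, a difference of 0.52 (SE 0.20, adjusted p = 0.0876). Ccl22 (-0.60), Ccl3 (-0.38), Cxcl16 (-0.29), Cxcl1 (-0.17) and Ccl5 (-0.17) had negative values and did not pass either. A fit of all 10-month groups together gave 3 higher and 3 lower of 22 tested members, against 31.6% of all genes. The mouse as a block over the 4 pairs other than mice 3 and 6 gave the same counts of 22 members, against 18% of all genes. Leaving out the summed uninvolved sample 3 and 6 also gave these counts, of 23 tested members, against 23.5% of all genes. Tumor 11 had the highest Cxcl9 (44.7 CPM), Ccl5 (6.75 CPM), Cxcl16 (25 CPM) and Cx3cl1 (15.1 CPM), and tumor 7 the lowest Cxcl9 (12.6 CPM), Cxcl16 (8.53 CPM) and Cx3cl1 (4.22 CPM). Against vehicle, 17 of 18 tested members differed (13 higher and 4 lower, background 45.9%, with 24.8% higher and 21% lower). Cx3cl1 was higher by 3.32 (SE 0.28), Ccl22 by 3.67 (SE 0.47) and Ccl4, a macrophage inflammatory protein, by 3.1 (SE 0.56).

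Some members also differed by age between vehicle livers of batch 1, taken from different mice at each age. From 3 weeks to 5 months 3 of 15 tested members rose and 2 fell, with a background of 24.2% (11.9% higher, 12.3% lower). The share of members called lay near that of all genes, and the median log2 fold changes were 0.22 and 0.02. Cxcl14 had 0 to 0.523 CPM in 7 samples of 3 weeks and 1.80 to 18.5 CPM in 7 vehicles of batch 1 at 5 months, without overlap, and its log2 fold change was 4.98 (SE 0.65, edgeR adjusted p = 8.11e-06). Cxcl1 rose from 0.910 to 1.58 CPM to a range of 1.02 to 67.0 CPM, by 3.84 (SE 0.64, adjusted p = 0.000177), and vehicles 5 and 6 held the extremes at 34.5 and 67.0 CPM. Cxcl12 rose by 0.39 (SE 0.13, adjusted p = 0.0358), but not with library totals (0.22), without the count filter (0.37) or with the replicate number as a block (0.38). Ccl24 fell from 2.18 to 5.32 CPM to a range of 0.0535 to 1.53 CPM, with a log2 fold change of -2.02 (SE 0.37, adjusted p = 0.000383). Ccl9 changed by -0.78 (SE 0.16, adjusted p = 0.00125), from a median of 73.0 CPM at 3 weeks.

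From 5 to 10 months 1 of 15 tested members rose and 5 fell in vehicles, with a background of 14.1% (6.68% higher, 7.41% lower). Ccl27a had 2.57 to 4.10 CPM in batch 1 vehicles of 5 months and 4.31 to 5.48 CPM at 10 months, and rose by 0.63 (SE 0.19, edgeR adjusted p = 0.0326). Ccl6 had 7.17 to 17.7 CPM and then 4.50 to 7.46 CPM, a change of -1.09 (SE 0.18, adjusted p = 0.000987). Cxcl9 changed by -0.91 (SE 0.19, adjusted p = 0.00456), from 7.30 to 17.7 CPM to 4.99 to 7.22 CPM, without overlap. Cxcl14 (-2.45, SE 0.55), Cxcl10 (-0.96, SE 0.28) and Cxcl1 (-1.92, SE 0.58) were also lower, and their ranges overlapped. With the tumor library of a vehicle mouse counted as a vehicle, Cxcl9 (-0.23), Cxcl10 (-0.04), Cxcl1 (-1.55) and Ccl27a (0.52) did not pass. Without the count filter Cxcl1, Cxcl10 and Ccl27a were lost, and with library totals Cxcl10 was lost. With the replicate number as a block Cxcl9, Cxcl14 and Cxcl1 were lost. Vehicle 6 of 5 months had 17.7 CPM of Cxcl14 and 67.0 CPM of Cxcl1, and vehicle 4 had 17.7 CPM of Cxcl9. These 2 vehicles also held the highest summed level of monocyte and recruited-macrophage markers in their group, 182 and 402 CPM, where the other 6 had 41.6 to 99.7 CPM. The part of these cells in the age differences was not tested.

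**Figure D4:**
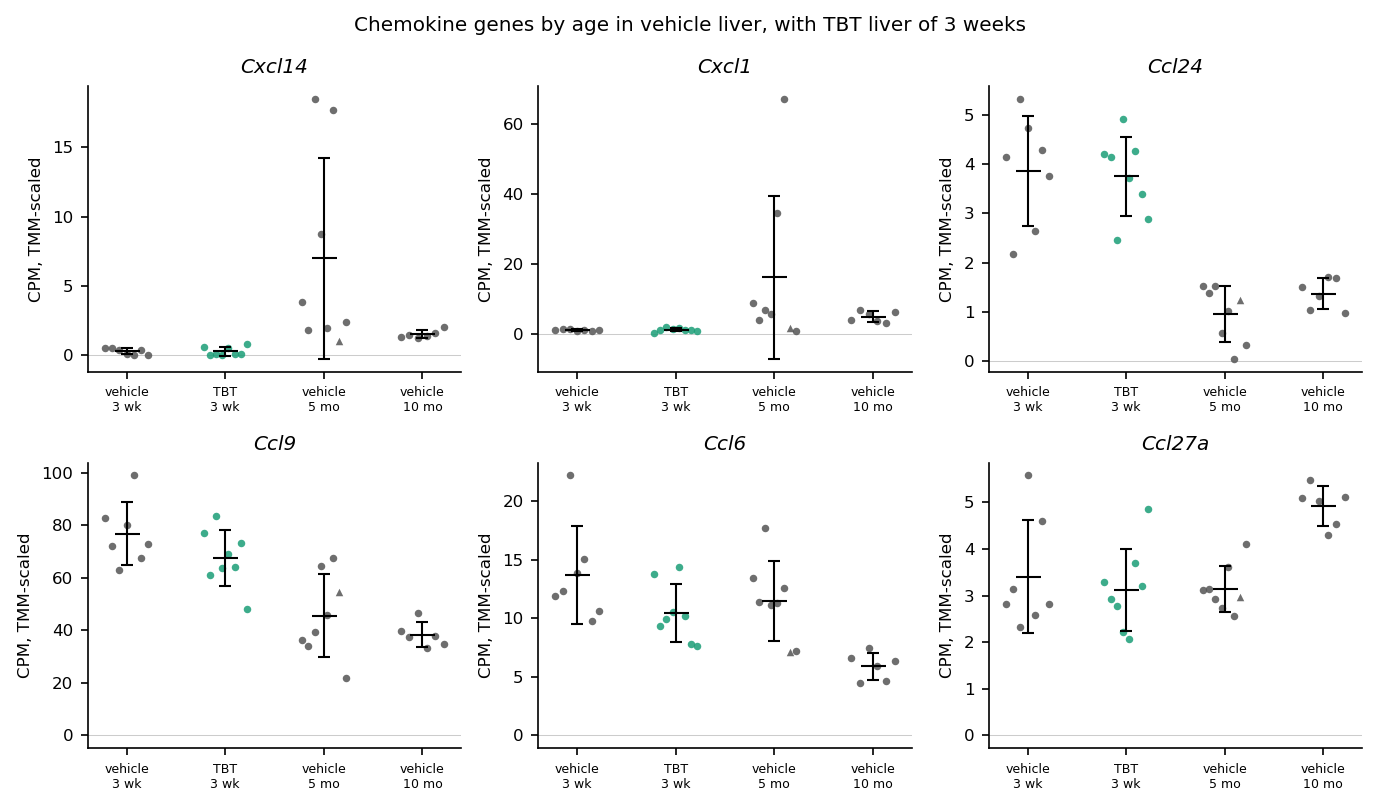
TMM-scaled CPM of Cxcl14, Cxcl1, Ccl24, Ccl9, Ccl6 and Ccl27a in vehicle liver of 3 weeks, 5 months and 10 months and in TBT liver of 3 weeks, with mean and SD, triangles marking batch 2. Cxcl14 is at or near 0 at 3 weeks in both groups, and Ccl24 is higher then than at either later age.

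The receptors for these ligands were read from a list of 18. In 5-month high-risk against low-risk livers 7 of 11 tested were higher and 0 lower, with a median of 1.59, where 20.3% of all genes were higher. Cx3cr1, the receptor of Cx3cl1, was higher by 3.17 (SE 0.41, edgeR adjusted p = 5.80e-07), Ccr2 by 1.70 (SE 0.25, adjusted p = 1.98e-06) and Ccr7 by 1.89 (SE 0.33, adjusted p = 2.87e-05). The level of Cx3cr1 was 4.84 to 26.9 CPM in the high-risk group and 0.676 to 3.70 CPM in the low-risk group, without overlap. At 10 months 10 of 13 tested were higher in uninvolved than low-risk livers and 0 lower (Cx3cr1 2.8, Ccr2 1.26, Ccr7 1.31), where 27.7% of all genes were higher. Between tumors and uninvolved samples the median of the 14 tested receptors was 0.00.

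Genes of NF-kB signalling, which drives many inducible chemokines, were higher in 9 of 14 at 5 months and 12 of 14 at 10 months, with 0 lower, against 20.3% and 27.7% of all genes. Vcam1 was higher by 1.40 (SE 0.20) and 0.83 (SE 0.16), Tnip1 by 0.92 (SE 0.14) and 1.5 (SE 0.24), and Tnfaip3, an inhibitor of the pathway, by 1.42 (SE 0.25) and 1.39 (SE 0.25). Interferon gamma signalling was more mixed: 3 of 8 tested genes were higher and 1 lower at 5 months, and 4 and 1 of 9 at 10 months. These shares lie near the 38.9% and 52.4% of all genes that passed in either direction. Ciita was higher by 1.34 (SE 0.23) and 1.05 (SE 0.16), whereas Irf1 was lower at 5 months (-0.55, SE 0.14). Ifng itself had a total of 10 counts in the high-risk and 11 in the low-risk livers of 5 months. Of the inducing cytokines Tnf was higher by 1.44 (SE 0.43) and 1.72 (SE 0.43) and Ltb by 1.58 (SE 0.35) and 1.08 (SE 0.31). Among proteases that cut or shed chemokines, Mmp12 was higher by 4.53 (SE 0.58) and 3.65 (SE 0.51), and Dpp4, which trims Cxcl10 and Cxcl12, was lower (-0.73, SE 0.11, and -0.63, SE 0.09). All of these named values passed at adjusted p under 0.05 by edgeR. The cytokines and proteases are single genes of their lists, whose counts of called genes are not given here. As 38.9% and 52.4% of all genes passed, these genes do not show that their lists moved.

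Markers of infiltrating myeloid and ductal cells moved with the inflammatory chemokines. At 5 months all 9 monocyte and recruited-macrophage markers were higher in the high-risk group, and their summed level ran from 65.6 to 434 CPM against 32.7 to 139 CPM. Cx3cr1 and Ccr2 are among these markers and also in the receptor list above, so the marker and receptor results partly rest on the same genes. High-risk livers 1 and 22, which were low for Cx3cl1, Cxcl16 and Cxcl10, had the lowest sums of their group at 97.2 and 65.6 CPM, where the other 8 had 222 CPM or more. At 10 months 8 of the 9 were higher in uninvolved than low-risk liver, with sums of 156 to 291 CPM against 43.5 to 69.6 CPM. Cholangiocyte markers (4 of 5 higher at 5 months and 5 of 5 at 10 months, with Spp1 shared between the lists) ran from 32.8 to 350 CPM in the high-risk group and from 27.3 to 221 CPM in low-risk livers. They had 105 to 209 CPM in uninvolved and 37.2 to 59.8 CPM in low-risk livers of 10 months. In uninvolved samples Spp1 alone averaged 122 CPM, where Sox9 averaged 16.2 CPM and Krt7 3.53 CPM. The median sums there were 150.7 CPM for cholangiocyte and 249.9 CPM for monocyte and macrophage markers. Spp1 thus made up much of both sums, which are not independent measures of these cell types. The counts of called markers weigh each gene equally. Dendritic cell markers were higher in 5 of 6 at both ages. Stellate cell and fibroblast markers were higher in 5 of 7 and lower in 1 of 7 at both ages. Among all genes tested, 20.3% were called higher at 5 months and 27.7% at 10 months. No gene of these lists was at 0 throughout a group.

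Markers of resident cells were called in both directions, apart from the Kupffer cell markers at 10 months. At 5 and 10 months, 38.9% and 52.4% of all genes passed in either direction. Those called lower were 18.5% and 24.7% of all genes, and those called higher 20.3% and 27.7%. Some of the counts that follow lay near these shares. Of 6 Kupffer cell markers 1 was higher and 2 were lower at 5 months (Timd4 -2.35, Clec4f -0.91 and Adgre1 0.46), and all 6 were lower in uninvolved than low-risk liver at 10 months. Sinusoidal endothelial markers were higher in 1 and lower in 4 of 5 at 5 months, and higher in 1 and lower in 2 of 5 at 10 months. Hepatocyte markers were higher in 1 and lower in 3 of 6 at both ages. Between tumors and uninvolved samples 1 of 9 monocyte and macrophage markers was higher, Spp1 by 1.49 (SE 0.43), and the medians were -0.31 over 5 endothelial and -0.29 over 7 stellate markers. Their summed levels were 135.5 to 229 CPM in tumors against 220 to 292 CPM in uninvolved samples for the endothelium, and 417 to 744 CPM against 587 to 759 CPM for stellate cells. The part of these cell types in the chemokine levels was not tested.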

How the data were processed

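Liver RNA was sequenced in 75 libraries. The authors deposited one table of read counts per gene for 55536 genes. Per the submitters' processing notes, Trim Galore, HISAT2, featureCounts and mm10 were used, with versions not given in the sources used here. The file name states that ComBat-seq batch adjustment had been applied to the deposited counts. Its settings and the strand setting of the counting are not stated, and an adjustment of counts before testing can narrow the spread between batches. All columns were matched to samples.

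Counts were tested with edgeR 4.0.16 (limma 3.58.1, R 4.3.3): filterByExpr, TMM scaling, the quasi-likelihood test and Benjamini-Hochberg adjustment over all genes tested, with a threshold of 0.05. Sequencing batch was a covariate at 5 months, and age comparisons used batch 1 vehicles. Printed CPM were scaled by TMM factors estimated once over all samples. DESeq2 1.42.0 and other alternatives are given in the closing section. Libraries of vehicle mouse 3 of 3 weeks, and uninvolved livers 3 and 6, were summed. In fits with the replicate number as a block, uninvolved livers 3 and 6 entered as separate samples or were left out. Equal numbers of tumor and uninvolved samples were read as the same mouse, and other equal numbers as numbers only. The correlation of deviations between tumor and uninvolved liver ran from -0.38 to 0.70 over 6 pairs, and 2 pairs exceeded 0.1. P-values cover the spread between the deposited samples. On simulated counts for the 5-month high-risk against low-risk comparison (14773 genes), 74 of 98 genes changed by 1 on the log2 scale and 94 of 100 changed by 2 were recovered, with 1 false among 169 calls. False calls were 11 among 178 for TBT against vehicle at 3 weeks and 7 among 166 for uninvolved against low-risk liver. They were 8 among 157 for tumor against uninvolved liver and 9 among 171 for vehicles of 5 months against 3 weeks. Each simulation changed 200 genes and held no batch effect, whereas 38.9% of genes passed in the real 5-month comparison.

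The members and lists were chosen with earlier results of these data known. Members described with per-sample values were, for each of 5 comparisons, up to 6 higher and 6 lower members with the smallest adjusted p under 0.05. Genes of other lists were among the 3 with the smallest adjusted p at 5 months, and marker genes named beyond these were chosen after their values were seen. Irf1 and Ifng were also named outside this rule. Promoter windows came from RefSeq (GRCm38.p6), and figures were drawn with matplotlib 3.10.9 in Python 3.11.15. Some genes of the lists and a further promoter pattern that was searched are not reported here.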

Additional observations from a re-analysis of the deposited data

Results flagged for a closer look

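Among 128 combinations of a named member and a group of 4 to 10 samples, 17 held a sample far from the rest of its group. Chance alone marks about 1 in 20 groups where values are normally distributed, which was not checked for these CPM. All 17 were the highest of their group. In low-risk livers of 10 months, liver 10 was far above the others for Cxcl10 (2.93 CPM), Ccl2 (1.32 CPM) and Ccl22 (0.472 CPM). Tumor 11 was far above the other tumors for Cxcl9 (44.7 CPM) and Ccl5 (6.75 CPM). At 3 weeks vehicle 4 was high for Cxcl9 (15.7 CPM) and Ccl5 (1.84 CPM), vehicle 5 for Cxcl16 (13.8 CPM) and vehicle 3 for Ccl6 (22.2 CPM). TBT sample 5 of 3 weeks was high for Cxcl10 (8.89 CPM) and TBT sample 3 for Ccl2 (1.91 CPM). At 5 months vehicle 9 was high for Ccl22 (2.39 CPM), high-risk liver 1 for Cxcl13 (2.67 CPM) and high-risk liver 9 for Cxcl1 (9.58 CPM). Vehicle 9 of 5 months was the shallowest library, with 2.83 M counts and 38206 genes detected, so its Ccl22 value rests on few reads. At 10 months vehicle 7 was high for Cx3cl1 (1.31 CPM), vehicle 6 for Ccl22 (0.23 CPM) and the summed uninvolved sample 3 and 6 for Cxcl14 (13.7 CPM).

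The library labelled as a tumor of a vehicle mouse, kept out of all comparisons, lay above the highest of the 6 vehicles of 10 months for 12 of the 16 named members. It had 30.6 CPM of Cxcl9 (highest vehicle 7.22), 8.83 of Cxcl10 (1.57), 16.5 of Cxcl16 (7.57) and 5.08 of Cx3cl1 (1.31). It had 4.45 CPM of Ccl5 (0.729), 1.56 of Ccl22 (0.23), 1.09 of Ccl2 (0.795) and 73.6 of Ccl9 (46.7). It also had 10.6 CPM of Ccl6 (7.46), 14.4 of Cxcl1 (6.93), 5.16 of Cxcl14 (2.03) and 6.88 of Ccl25 (5.05). It is a single library with no replicate, and mitochondrial genes took 14.06% of its 11.51 M counts, where the 6 vehicles had 3.14 to 3.83% and 26.17 to 30.98 M counts.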

How the results depend on the processing

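Of 76 gene results, 39 stayed past the threshold under every alternative run for them and 0 reversed; of 954 gene values under alternatives, 90 kept their direction and lost the threshold. The count of called members between high-risk and low-risk livers of 5 months (12) was 7 without the libraries that stood apart, 2 in batch 1 and 6 in batch 2. Against vehicle (6) it was 3 without the count filter, 0 in batch 1 and 0 with the replicate block over 3 numbers that do not mark a shared source. Between tumor and uninvolved liver (3) it was 6 in a fit of all 10-month groups, 1 to 6 with each uninvolved sample left out, 3 with the replicate block (2 of them shared) and 6 with that block over 4 pairs. Between tumor and vehicle (17) and between uninvolved liver and vehicle (14) it was 10 each when the tumor library of a vehicle mouse joined the vehicles. Between vehicles of 10 and 5 months (6) it was 3 without the count filter, 3 with the replicate block and 2 with that library included. Leaving out single samples gave 12 to 16 for uninvolved against low-risk liver, 13 to 17 for uninvolved liver against vehicle, and 0 for low-risk liver against vehicle and for the interaction. With the replicate block the count was 13 for uninvolved liver against vehicle, 14 for tumor against vehicle and 4 for vehicles of 5 months against 3 weeks. The scaling by library totals, the fits without Mup genes, the block over 4 pairs and the fit without low-risk liver 24 (13 called) were chosen after seeing the data. Members under about 1 CPM rest on few reads per library.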
